A study of Xenopus tropicalis with 26 samples.

Results

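Neurula embryos were compared with gastrula embryos of Xenopus tropicalis, the western clawed frog, in whole transcriptome target sequencing (WTTS), which reads the polyadenylated 3′ ends of transcripts. The comparison rests on 4 of the 26 libraries of the study, chosen by their labels: stage 15 of family 1 and family 2 against stage 11 of the same families. In the usual staging of Xenopus, stage 11 is a gastrula and stage 15 a neurula. Each library came from 1 pool of whole embryos of 1 family, and the number of embryos in a pool is not stated in the sources used here. No treatment or genotype is given for any embryo pool. The 10 embryo WTTS libraries, of both families and 5 stages (6 and 8 before gastrulation, 11, 15, and 28 as the latest), gave the estimate of spread, and 6 RNA-seq libraries of the pools at stages 6, 8 and 11 served as another readout. In whole embryos, fewer cells of a type and less RNA per cell cannot be told apart.

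From the blastula on, the embryo's own genes take over from the maternal RNA stored in the egg, and gastrulation lays down the germ layers. During neurulation the neural plate folds into a tube, somites form along the axis, the epidermis matures, and much of the remaining maternal RNA is cleared. Stage 28 is a tailbud embryo, in which muscle and sense organs are forming.

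The files hold 27836 features with an XLOC identifier and a position, without gene names beside them. The reference gene table holds 0 of these 27836 identifiers, so features are named by identifier and by position as deposited, and their functions are not described. Which genome build the positions refer to is not stated in the sources used here. The 4 libraries held 1903860 to 4261905 counts, and 14013 features passed the filter on low counts.

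Few features held a large part of the counts, and unevenly between families. XLOC_016359, on scaffold_5 from 8636690 to 8661332, minus strand, took 17.6% of counts at stage 11 in family 1 and 2.91% in family 2, then 17.5% and 17.0% at stage 15. It did not pass the threshold (log2 change 1.26, SE 0.86, adjusted p = 0.334 in edgeR's quasi-likelihood test), and the families stood far apart at stage 11. It did pass when features of low counts were kept in the fit (adjusted p = 3.42e-07, edgeR). Adjusted p of other named features fell in that setting too, with log2 nearly unchanged. For XLOC_026753 log2 was 7.83 and 7.84, while adjusted p went from 3.45e-06 to 1.63e-44 (edgeR). The pass is thus no sign that the families stood closer at stage 11. In RNA-seq of the same stage 11 pools it stood at 3239 and 3099.8 normalised CPM, counts scaled to a common library size, without the gap seen in WTTS. This feature was chosen after its values were seen. CPM values of embryo libraries here are scaled by the trimmed mean of M values (TMM). Those of the adult female are scaled by the library total alone.

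From gastrula to neurula, 1531 features rose and 1069 fell, of 14013 tested, with family as a block. That is 10.9% and 7.63% of the features tested, and 18.6% in either direction. Rising features had a median log2 change of 2.08, which was 2.07 once the 20 features without a stage 11 count were given a bound of 3 counts over the group. For falling features it was -1.58, also with the 12 at 0 counts at stage 15 at that bound. By the fitted log2, at least 8-fold changes were seen in 402 rising and 97 falling features, or 26.3% and 9.07%. Over all features tested there were 618, or 4.41%. The median over all features was -0.06. The values of stage 11 and stage 15 did not overlap for 1520 rising and 1054 falling features, or 99.3% and 98.6%, beside 55.1% of all features tested. The same libraries made the calls, so this separation follows largely from the choice of features.

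The number of calls fell when any 1 of the 4 libraries was left out, and least without family 2 of stage 11. Without family 1 of stage 11, 387 features rose and 200 fell. The counts were 624 and 231 without family 1 of stage 15, and 708 and 336 without family 2 of stage 15. Without family 2 of stage 11 they were 1165 and 948. Without the replicate block 960 rose and 555 fell, and these were all among the features called with the block.

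The rising features with the smallest p were nearly silent up to gastrula. XLOC_026753, on scaffold_9 from 5149711 to 5159299, minus strand, had 0.597 CPM in family 1 and 0.510 CPM in family 2 at stage 11, from 2 and 1 counts. It had 141 and 121 CPM at stage 15, with 285 and 230 counts. Both neurula libraries stood far above every earlier library, in which it held at most 1.14 CPM. The ratio was 232, and its 95% interval from counting error ran from 79.0 to 1129.5 (adjusted p = 3.45e-06, edgeR), higher in both families, and the level reached 543 and 391 CPM at stage 28. XLOC_021567, on scaffold_7 from 32911274 to 32994948, minus strand, had 1.49 and 2.55 CPM at stage 11 and 426 and 249 CPM at stage 15. It rose in both families (log2 7.47, SE 0.48, adjusted p = 7.79e-06, edgeR) and stood at 3675 and 1484 CPM at stage 28. It overlaps another feature on its strand.

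Among rising features whose stages did not overlap, the largest gains in mean CPM were in features already present at gastrula. XLOC_004493, on scaffold_10 from 32831647 to 32878798, minus strand, had 2147 and 1862 CPM at stage 11 and 17625 and 10307 CPM at stage 15 in families 1 and 2. Both families rose without overlap (log2 2.74, SE 0.32, adjusted p = 0.000171, edgeR). Its level was 395 to 692 CPM in the 4 libraries of stages 6 and 8, and 24423 and 14988 CPM at stage 28. XLOC_001098, on scaffold_1 from 126570647 to 126578172, plus strand, had 5373 and 5003 CPM at stage 11 and 15632 and 12648 CPM at stage 15. The rise was smaller (log2 1.44, SE 0.29, adjusted p = 0.00550, edgeR), and the call was lost without family 1 of stage 11 (adjusted p = 0.0670) or of stage 15 (adjusted p = 0.0602).

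The falling features with the smallest p kept falling to near 0 at tailbud. XLOC_025406, on scaffold_8b from 1473863 to 1477898, minus strand, had 299 and 149.6 CPM at stage 11 and 23.3 and 7.35 CPM at stage 15. It fell by 3.95 on the log2 scale (SE 0.32, adjusted p = 1.69e-05, edgeR), in both families. At stage 28 it had 1 count in family 1 and 0 in family 2. XLOC_000427, on scaffold_1 from 55047162 to 55058671, plus strand, had 410.1 and 272 CPM at stage 11 and 36.7 and 29.4 CPM at stage 15. It fell by 3.36 (SE 0.28, adjusted p = 2.05e-05, edgeR) and stood at 0.759 and 0.690 CPM at stage 28.

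Among falling features whose stages did not overlap, the largest losses in mean CPM were in features that stayed abundant. XLOC_010427, on scaffold_3 from 3145122 to 3177222, minus strand, had 1596 and 674 CPM at stage 11 and 392 and 389 CPM at stage 15 (log2 -1.43, SE 0.43, adjusted p = 0.0369, edgeR). The gastrulae of the families stood far apart in WTTS. RNA-seq of the same stage 11 pools gave 190 and 189 CPM, without that gap, and 126 to 159 CPM at stages 6 and 8. The call was lost without family 1 of stage 11 (log2 -0.95), without either family of stage 15, and without the replicate block. XLOC_002762, on scaffold_1 from 117285169 to 117314871, minus strand, went from 1267 and 1055 CPM to 715 and 568 CPM (log2 -0.86, SE 0.26, adjusted p = 0.0350, edgeR). Its call was lost without any 1 of the 4 libraries, with adjusted p from 0.0846 to 0.231, and without the replicate block.

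The families share no library, so the change in each is a repeat of the other. Of 12822 features with at least 20 counts over the 4 libraries, 2342 were at least 2 times higher at stage 15 in family 1, on the scale of CPM with 1 added, or 18.3%. Of these, 58.3% were at least 2 times higher in family 2 also, against 15.6% of all 12822, and 31 were at least 2 times lower. Of 2310 at least 2 times lower in family 1, or 18.0%, the share also lower in family 2 was 41.5%, against 13.6% of all, and 56 were at least 2 times higher. Across the 12822 features the changes of the families had a Spearman correlation of 0.66 and a Pearson correlation of 0.72. Features are not independent replicates, so this is a description.

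**Figure D1:**
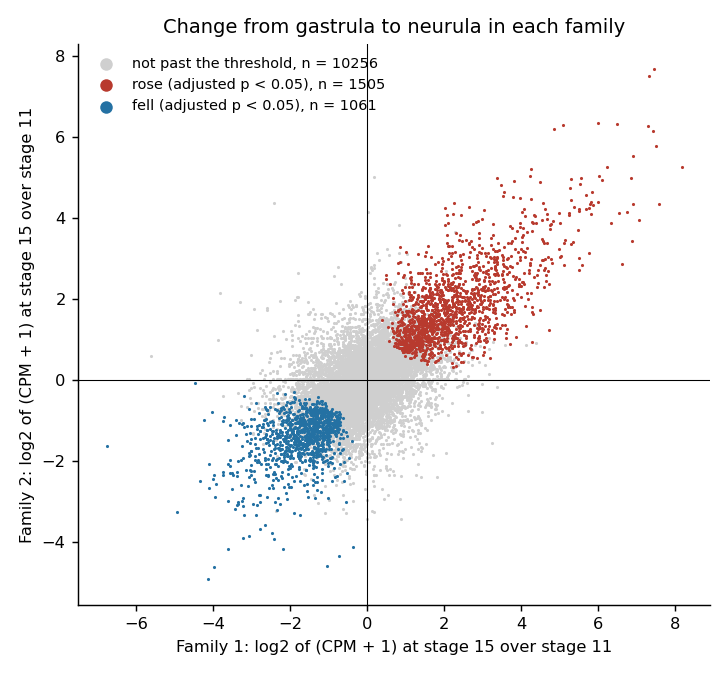
Change from stage 11 to stage 15 in family 1 (horizontal axis) and family 2 (vertical axis), each as log2 of (CPM + 1) at stage 15 over stage 11, for the 12822 features with at least 20 counts; each point is a feature. The 1505 rising features (red) lie at the upper right and the 1061 falling ones (blue) at the lower left, since the call uses both families.

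No feature passed the threshold in the test of a difference between families in this change, 0.0% of 14013 in edgeR's quasi-likelihood test. In that test 488 had an unadjusted p below 0.05, a smaller share of the 14013 than the 0.05 that no difference would give. With 1 pool per family and stage, differences can be missed, so the lack of calls is no sign that the families changed alike. DESeq2 called 1 and limma-voom 0, and edgeR called 24 as higher and 9 as lower in family 2 when low counts were kept. The leading feature, XLOC_004133, on scaffold_10 from 4180333 to 4184064, minus strand, stood in family 1 at 215 CPM at stage 11 and 0.991 CPM at stage 15, and in family 2 at 34.2 and 10.5 CPM. The difference between families was 6.28 on the log2 scale (SE 1.03), and it did not pass (adjusted p = 1). It was chosen by this p, outside the naming rule. Over both families its fall from stage 11 to 15 did pass (log2 -4.50, SE 0.96, adjusted p = 0.00726, edgeR). In RNA-seq of the same stage 11 pools it stood at 25.2 CPM in family 1 and 18.2 CPM in family 2, a smaller gap than in WTTS.

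In gastrulae of family 2, the features that rise later already stood higher, and those that fall stood lower, than in gastrulae of family 1. At stage 11 the median WTTS level of rising features was 6.27 CPM in family 1 and 10.2 CPM in family 2, and that of falling features was 42.4 and 32.2 CPM. At stage 15 the families stood closer, with medians of 38.1 and 39.4 CPM for rising and 12.4 and 11.0 CPM for falling features. The RNA-seq libraries of the same stage 11 pools, which had no part in choosing the features, show the same order. There 1245 of 1476 rising features, or 84.4%, were higher in family 2, against 51.5% of all 13691 features tested by both methods. Of falling features 18.9% were higher in family 2.

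At stages 6 and 8 this order was not seen. In RNA-seq 48.6% of rising features were higher in family 2 at stage 6 and 47.0% at stage 8, and 48.3% and 57.0% of falling ones. At stage 11 a family 2 level at least 2 times that of family 1, with 1 CPM added, was found for 23.4% of rising features in RNA-seq, against 4.70% of all. Within families, the median log2 change from stage 11 to 15 was 2.03 in family 1 and 1.67 in family 2 for rising features, and -1.59 and -1.33 for falling features. With 1 pool per family and stage, the difference between families has no replicate.

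**Figure D2:**
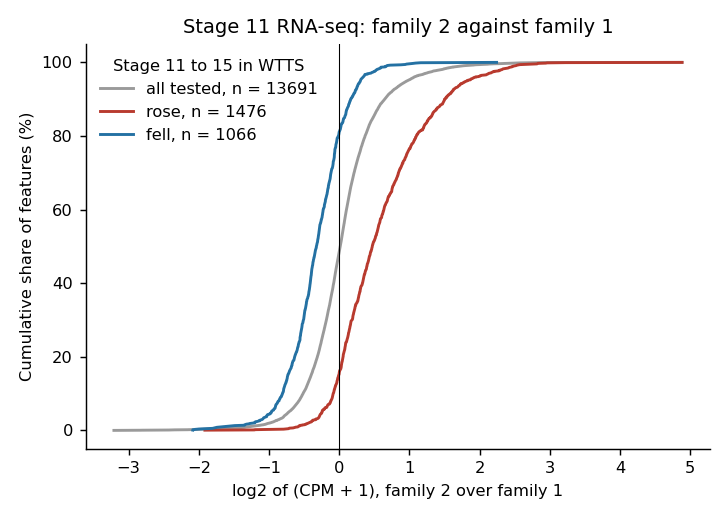
Cumulative share of features (vertical axis, %) by the log2 of (CPM + 1) in family 2 over family 1 (horizontal axis) in the 2 RNA-seq libraries of stage 11. The curve of the 1476 features that rose from stage 11 to 15 in WTTS (red) lies to the right of all 13691 features (grey), and that of the 1066 that fell (blue) lies to the left.

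Features that rose had been low before gastrula and stayed high at tailbud. Their median level was 3.43 and 3.30 CPM at stage 6 and 3.70 and 3.71 CPM at stage 8 in families 1 and 2. At stage 28 it was 41.0 and 39.3 CPM, close to that of stage 15. They took 5.71% to 6.39% of all counts in the libraries of stages 6 and 8, 6.47% and 8.61% at stage 11, 20.2% and 19.6% at stage 15, and 31.7% and 31.4% at stage 28. Falling features ran the other way. Their median was 47.3 to 53.8 CPM at stages 6 and 8 and 12.9 and 13.1 CPM at stage 28, and their share of counts went from 13.3% to 14.7% at stages 6 and 8 to 2.52% and 3.31% at stage 28. Levels at stages 11 and 15 chose these features and are a description.

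**Figure D3:**
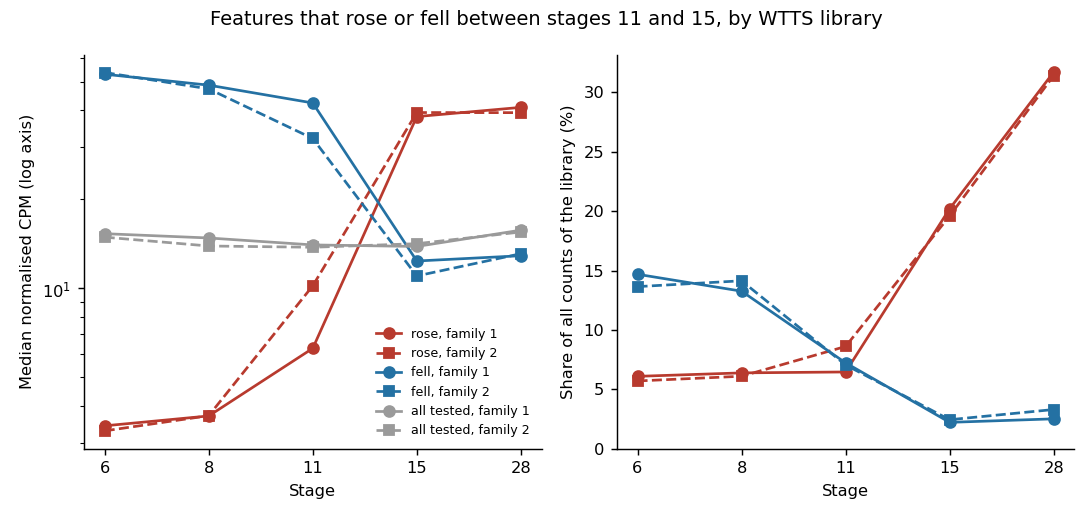
Median normalised CPM (left, log axis) and share of all counts of the library (right, %) of the features that rose (red) or fell (blue) between stages 11 and 15, and of all features tested (grey, left only), at each stage (evenly spaced), with family 1 as circles and family 2 as squares. Rising features hold 31.7% and 31.4% of counts at stage 28, and the medians of family 1 and family 2 stand apart at stage 11.

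Stage 28 against stages 6 and 8 shares no library with the comparison of stages 15 and 11, although both come from 1 fit with a common estimate of spread. The filter on low counts read all libraries of this fit, stage 28 included. Rising features had medians of only 3.30 to 3.71 CPM at stages 6 and 8, so many may have passed only through later stages. For such features a higher level at stage 28 can follow in part from the choice. How much of their share this explains was not tested. Of the 1531 rising features, 1303, or 85.1%, were higher at stage 28 than at stages 6 and 8, and 68 were lower. Over all features tested these shares were 34.0% higher and 30.8% lower. Of the 1069 falling features, 830, or 77.6%, were lower at stage 28 and 44 were higher. Among the 9852 features whose mean reached 8 CPM, a group nearer in abundance to those called, 30.3% were higher and 38.1% lower. Scaling moves this background: the median log2 over all tested was 0.03 with TMM, while size factors from DESeq2 gave 0.15, with 5006 higher and 3979 lower.

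The earlier step, up to gastrula, was read by another method. In RNA-seq of stage 11 against stages 6 and 8, 913 of 1476 rising features, or 61.9%, were higher at gastrula, and 223 were lower. Of 1066 falling features, 741, or 69.5%, were lower at gastrula and 123 were higher. Over the 13691 features tested by both methods, 30.6% were higher and 40.5% lower. Among the 9770 of these whose WTTS mean reached 8 CPM, 26.9% were higher and 45.3% lower. This comparison shares no library with that of WTTS, but the stage 11 embryo pools are the same.

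**Figure D4:**
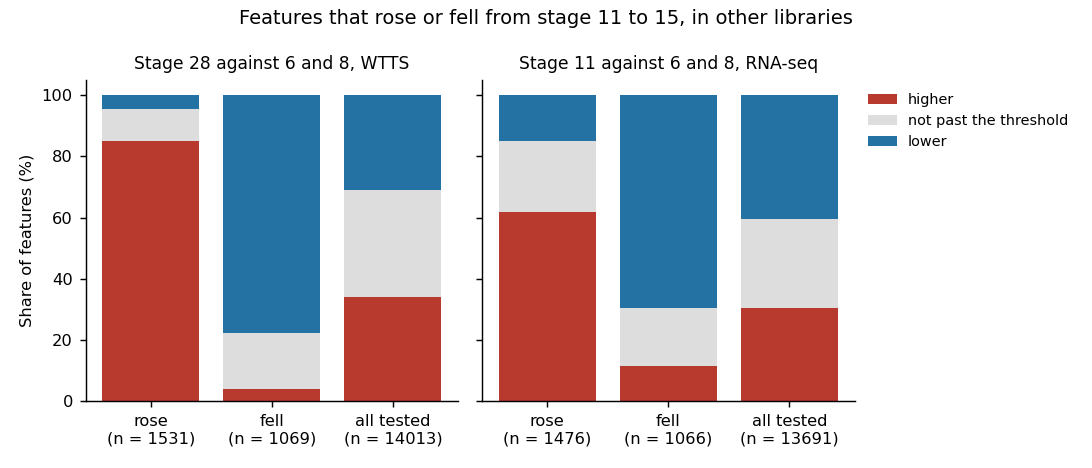
Share of features (%) that were higher (red), lower (blue) or not past the threshold (grey) at stage 28 against stages 6 and 8 in WTTS (left) and at stage 11 against stages 6 and 8 in RNA-seq (right), for features that rose or fell from stage 11 to 15 and for all tested. Of rising features 85.1% are higher at left and 61.9% at right, and of falling features 77.6% and 69.5% are lower.

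After stage 15, rising features were divided much as all features were. By mean CPM, 898 of 1531, or 58.7%, stayed within 2 times of stage 15 at stage 28, against 62.2% of all 14013 features. At least 2 times higher were 334, or 21.8%, against 21.7% of all, and at least 2 times lower were 299, or 19.5%, against 16.1%. These groups share the stage 15 libraries with the choice of features and are a description.

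Before stage 11, 658 of the rising features, or 43.0%, were at least 2 times lower at stages 6 and 8 than at gastrula, against 21.5% of all features tested. Another 682, or 44.5%, were within 2 times, against 59.3%, and 191, or 12.5%, were at least 2 times higher, against 19.2%. These groups share the stage 11 libraries with the choice of features, so they too are a description. In RNA-seq 579 of 639 in the first group, or 90.6%, also rose to stage 11, against 78.8% of all features with that WTTS pattern. Of those higher at stages 6 and 8, 120 of 177, or 67.8%, fell to stage 11 in RNA-seq, below the 88.0% of all features with that WTTS pattern, and 25 rose. Those 120 stood lower at gastrula than before it by both methods, and then rose to neurula in WTTS.

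Some rising features had their highest level at neurula. XLOC_010557, on scaffold_3 from 11836161 to 11860165, minus strand, had at most 2.55 CPM in any library up to stage 11, then 63.4 and 54.1 CPM at stage 15 and 8.35 and 12.1 CPM at stage 28. It rose by a log2 of 4.78 to stage 15 (SE 0.48, adjusted p = 6.42e-05, edgeR), and the next step to stage 28 was -2.55 (adjusted p = 0.000621). XLOC_021921, on scaffold_7 from 77351293 to 77382660, minus strand, climbed in steps. It had 1.00 to 1.86 CPM at stages 6 and 8, 31.4 and 60.2 CPM at stage 11, 495 and 343 CPM at stage 15 and 190.5 and 167 CPM at stage 28. Its change to stage 15 was 3.20 (SE 0.36, adjusted p = 0.000146, edgeR), higher in both families. In RNA-seq it went from 0.149 to 0.265 CPM at stages 6 and 8 to 46.8 and 133 CPM at stage 11, so family 2 was again the higher gastrula pool.

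Other rising features went on rising. XLOC_004800, on scaffold_112 from 96889 to 102346, plus strand, had 0.299 and 1.53 CPM at stage 11, 202 and 195 CPM at stage 15 and 904 and 488 CPM at stage 28 (log2 7.97 to stage 15, SE 0.56, adjusted p = 7.90e-06, edgeR). In RNA-seq it rose from at most 0.364 CPM at stages 6 and 8 to 1.82 and 7.83 CPM at stage 11 (adjusted p = 0.000286). XLOC_005423, on scaffold_1645 from 828 to 10290, plus strand, was at 0 counts at stage 11 in WTTS, and RNA-seq of those pools gave it 0.136 and 0.115 CPM. Both readouts thus put it at or near 0 before neurula. Even so, RNA-seq called it higher at stage 11 than at stages 6 and 8 (log2 2.27, SE 0.66, adjusted p = 0.0212, edgeR). In WTTS it had 174 and 202 CPM at stage 15 and 1009.6 and 493 CPM at stage 28.

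A small group of 28 rising features had at most 3 counts over the 6 libraries of stages 6, 8 and 11, as did 81 of all 14013 features tested. Such features passed the filter on low counts only through stages 15 and 28, so a higher level there follows from the choice. Their mean level at stage 15 ran from 2.06 to 169.6 CPM with a median of 6.59, and the median at stage 28 was 13.2 CPM. They were short features, with a median span of 6692 bp against 22385 bp over all features tested. Shorter spans were not particular to them. The median was 15203 bp for features that rose at least 8 times and 9165 bp for those that fell at least 8 times. The leading member of the 28, XLOC_000499, on scaffold_1 from 62542335 to 62544737, plus strand, held 3 counts in those 6 libraries and 317 and 347 at stage 15. A feature on the opposite strand overlaps it, and whether counting used strand is not stated in the sources used here.

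Of 1069 falling features, 674, or 63.1%, were within 2 times at stages 6 and 8, cleavage and blastula, of their stage 11 level, near the 59.3% of all features tested. At least 2 times higher were 274, or 25.6%, against 19.2% of all, and at least 2 times lower were 121, or 11.3%, against 21.5%. The stage 11 libraries also chose these features. In RNA-seq 266 of 273 in the second group, or 97.4%, fell to stage 11, against 88.0% of all features with that WTTS pattern. XLOC_014748, on scaffold_4 from 124938936 to 124945205, minus strand, fell at each step after blastula, including stage 8 to 11 (log2 -3.94) and 15 to 28 (log2 -2.81). It had 1139.5 and 1358 CPM at stage 8, 96.5 and 64.3 at stage 11, 6.93 and 7.35 at stage 15 and 0.949 and 1.03 at stage 28. The change from stage 11 to 15 was -3.50 on the log2 scale (SE 0.36, adjusted p = 7.67e-05, edgeR).

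RNA-seq followed the same early course of XLOC_014748, with 798 to 1360.4 CPM at stages 6 and 8 and 54.7 and 41.5 CPM at stage 11. In the 2 technical repeats of an adult female frog it stood at 1355 and 1847 CPM, so it was abundant in an adult as in early embryos. The female values lack the TMM scaling of the embryo values, so the levels are not on the same scale. XLOC_004995, on scaffold_127 from 50102 to 63326, minus strand, went from 377 and 232 CPM at stage 8 to 72.0 and 36.2 at stage 11 and 6.44 and 5.25 at stage 15 (log2 -3.16 for the last step, SE 0.33, adjusted p = 8.89e-05, edgeR). Its level at stage 28 was 8.92 and 3.79 CPM, on either side of both stage 15 values.

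The 121 falling features that were lower at stages 6 and 8 stood higher at gastrula than before it and at neurula. In RNA-seq 92 of 120, or 76.7%, rose to stage 11 and 8 fell, near the 78.8% of all features with that WTTS pattern. XLOC_004468, on scaffold_10 from 30771561 to 30775854, minus strand, had 0.570 to 2.32 CPM at stages 6 and 8, 212 and 100.1 CPM at stage 11, and 12.4 and 3.15 CPM at stage 15. It fell by 4.35 (SE 0.50, adjusted p = 0.000171, edgeR) and held 1 and 0 counts at stage 28. RNA-seq showed the same rise to gastrula, from 1.18 to 1.53 CPM to 156 and 108 CPM (log2 6.66, SE 0.22, adjusted p = 3.63e-06). XLOC_007301, on scaffold_2 from 21748701 to 21767021, minus strand, had 306 and 178 CPM at stage 11 and 38.1 and 20.5 CPM at stage 15 (log2 -3.04, SE 0.39, adjusted p = 0.000386, edgeR). An opposite-strand feature overlaps it.

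For 249 falling features, or 23.3%, the level at stage 28 was at least 2 times that of stage 15, close to the 21.7% of all features tested. XLOC_024832, on scaffold_8 from 94533089 to 94588443, minus strand, had 46.9 and 23.0 CPM at stage 11, 6.93 and 3.67 at stage 15 and 23.3 and 12.1 at stage 28. Neurula was its lowest stage in both families (log2 -2.70 from stage 11, SE 0.34, adjusted p = 0.000295, edgeR). XLOC_014304, on scaffold_4 from 78385173 to 78419455, minus strand, had 70.2 and 66.9 CPM at stage 11, 11.9 and 16.3 at stage 15 and 24.9 and 39.0 at stage 28 (log2 -2.30 from stage 11, SE 0.31, adjusted p = 0.000482, edgeR).

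**Figure D5:**
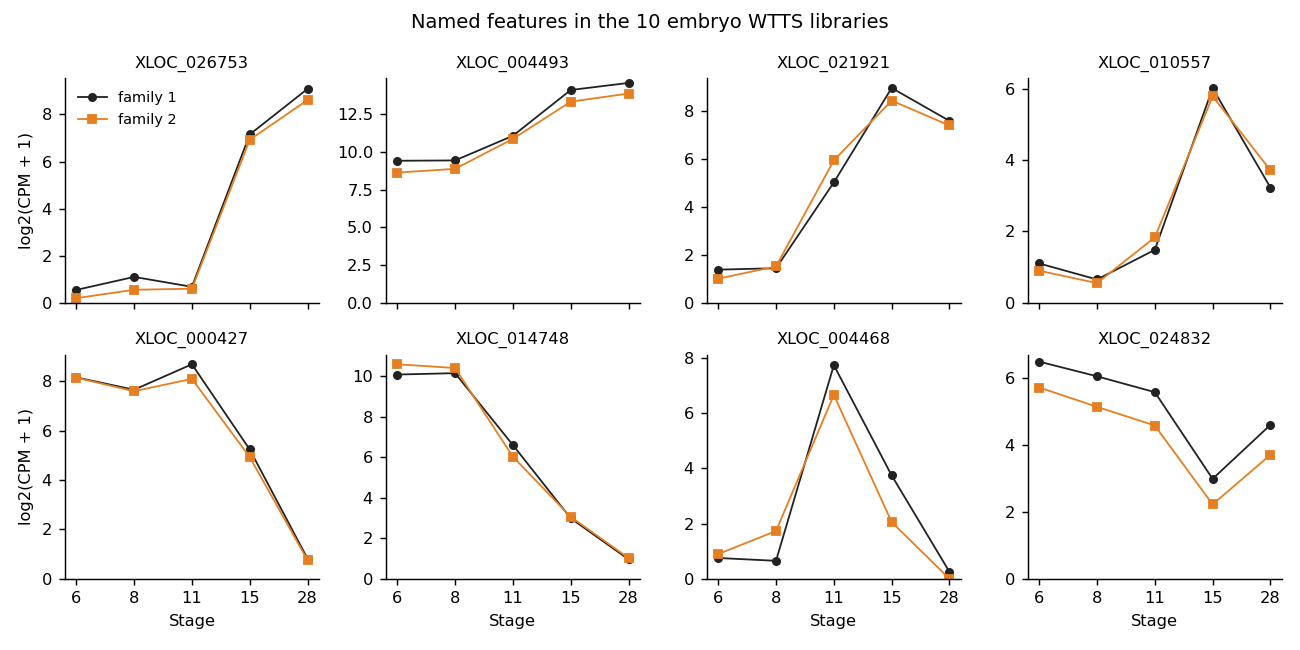
Level of 8 named features as log2(CPM + 1) (vertical axis, its own range in each panel, from 0) by stage (evenly spaced) in family 1 (circles) and family 2 (squares). The upper row holds features that rose between stages 11 and 15 and the lower row features that fell; XLOC_010557 peaks at stage 15 with 63.4 and 54.1 CPM, XLOC_004468 at stage 11 with 212 and 100.1 CPM, and XLOC_024832 has its lowest values at stage 15, 6.93 and 3.67 CPM.

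Neighbours along a scaffold were compared next. The next feature tested along the scaffold also rose for 13.3% of rising features, against 10.9% of all tested, and where the mean reached 8 CPM these shares were 16.4% and 12.5%. For falling features the next also fell in 9.99% of cases, against 7.74%. Rising features stood 3 in a row at 22 places, 4 in a row at 5 places and 5 in a row at 2 places, and falling ones 3 in a row at 11 places. How many such places would arise from calls scattered at random was not tested. Whether neighbours on a strand are parts of a single gene is not stated in the sources used here.

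On scaffold_10 from 28877046 to 28985456, 5 features on the plus strand rose by log2 2.62 to 5.68. Their summed level was 15.2 and 74.5 CPM at stage 11 in families 1 and 2, 1050.6 and 759.5 CPM at stage 15, and 408 and 395 CPM at stage 28. Neurula was the highest stage of this group, and at gastrula family 2 stood above family 1. A member overlaps another feature on its strand. On scaffold_2 from 90188786 to 90259109, 4 features on the minus strand rose by 3.80 to 5.65, from 2.39 and 10.7 CPM at stage 11 to 166 and 168 CPM at stage 15. On scaffold_4 from 20313808 to 20435374, 4 features on the plus strand went from 73.2 and 81.7 CPM to 922 and 731 CPM, and reached 8681 and 4310.5 CPM at stage 28. In this group 1 member overlaps a feature of the opposite strand.

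XLOC_026753 stood at the end of another such group, of 4 features on both strands of scaffold_9 from 4950321 to 5159299. Their summed level was 51.4 and 203 CPM at stage 11 and 1385.5 and 1698 CPM at stage 15, and 916 and 739.6 CPM at stage 28. Other members of this group overlap each other, so the reads of those members cannot be told apart with certainty. XLOC_026753 itself overlaps no other feature.

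Falling neighbours included a group with a gastrula peak. On scaffold_5 from 118075030 to 118186416, 3 features on the minus strand fell, with log2 changes from -3.14 to -5.70. Their summed level was at most 1.83 CPM at stages 6 and 8, 171 and 135 CPM at stage 11, 20.8 and 6.30 CPM at stage 15, and 1.33 and 0.345 CPM at stage 28. RNA-seq of these pools gave 478 and 318 CPM at stage 11 and at most 1.22 CPM before it, so the peak was found by both methods. XLOC_025406 lay between neighbours on scaffold_8b, from 1458497 to 1493134, that also fell. In WTTS the 3 together had 2340 and 1390 CPM at stage 6, 1546 and 521 CPM at stage 8, 797 and 545 CPM at stage 11, 143 and 129 CPM at stage 15, and 3.04 and 1.03 CPM at stage 28. The sum of these 3 in RNA-seq ran the other way up to gastrula, with 1016 to 1182 CPM at stages 6 and 8 and 3482 and 3103 CPM at stage 11. XLOC_025406 alone stood higher at gastrula than before it by both methods. In WTTS it had 26.4 to 69.7 CPM at stages 6 and 8, and 299 and 149.6 CPM at stage 11. In RNA-seq it had 129 to 212 CPM at stages 6 and 8, and 1499 and 1158 CPM at stage 11. Each of these falling groups holds 1 member that an opposite-strand feature overlaps.

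Along the scaffolds the calls were spread widely. Over the 10 scaffolds with at least 300 features tested, the share that rose was 10.1% to 13.3%, and the share that fell was 6.22% to 8.91%. Spans differed little, with a median of 19572 bp for rising, 20777 bp for falling and 22385 bp for all features tested. An overlap with a feature on the other strand was found for 19.7% of rising, 20.8% of falling and 22.6% of all features.

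In the adult female libraries, falling features were more abundant than rising ones. The median level of falling features was 40.8 and 50.8 CPM in the 2 technical repeats, that of rising features 7.10 and 7.76 CPM, and that of all features tested 14.7 and 18.4 CPM. Falling features also stood above all features tested at stages 6 and 8, with medians of 47.3 to 53.8 against 13.9 to 15.3 CPM. Whether the order in the female goes beyond this abundance was not tested. These repeats come from 1 animal, so the values describe that frog. At 0 counts in both repeats were 14 rising features, or 0.914%, and 6 falling features, or 0.561%, against 55, or 0.392%, of all tested.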

How the data were processed

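The authors deposited 1 table of read counts per feature for 26 libraries, not normalized, per the file headers and the whole numbers it holds. Per the labels, WTTS libraries were made by fragmentation, enrichment of polyadenylated RNA, cDNA synthesis, size selection and PCR. The aligner, the counting tool, its use of strand and the genome build are not stated in any source used here. Duplicate reads from PCR cannot be told from separate molecules, so counting intervals cover counting error only.

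Counts of the 10 embryo WTTS libraries (1536128 to 6276132 per library) were fitted with edgeR 4.0.16 in R 4.3.3, with its filter on low counts, TMM scaling, stage, and family as a block. Quasi-likelihood tests were adjusted by Benjamini-Hochberg over all features tested, with a threshold of 0.05. The 6 RNA-seq libraries (110710673 to 131001449 counts) were fitted separately. DESeq2 1.42.0 and limma-voom (limma 3.58.1) were alternatives. Descriptions used Python 3.11.15 with pandas 2.3.3. The fits were tested on simulated counts with known changes, drawn with the spread estimated from these libraries. They are thus no check of that spread itself.

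The families pair the libraries, because both families are labelled at each stage. Deviations from stage means correlated within families with r = 0.41 between stages 11 and 15, and from 0.11 to 0.41 over 10 pairs of stages, across 9852 features.

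Named features passed the threshold without overlap between groups and with at least 20 counts, and had the smallest p or the largest gain or loss in CPM in each direction, or the smallest p by level at other stages. No feature passed for the difference between families, so XLOC_004133, XLOC_005482 and the abundant XLOC_016359 were named after their values were seen. The members and lists were chosen with earlier results of these data known. Lists of genes by symbol were not used, since features carry no symbols. No sequence is shown, since no genome of the files' build was used here.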

Additional observations from a re-analysis of the deposited data

Results flagged for a closer look

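XLOC_005482, on scaffold_169 from 134765 to 256436, minus strand, drew attention because its values had opposite signs of change in the families. It had 8417 CPM at stage 11 and 9136 CPM at stage 15 in family 1, which is nearly level, and 131920.0 and 14209 CPM in family 2. The difference between families was -3.33 on the log2 scale (SE 1.05), and it did not pass the threshold (adjusted p = 1, edgeR). In RNA-seq of the stage 11 pools it stood at 7269.5 CPM in family 1 and 1943 CPM in family 2, the other order. Its change over both families was -1.84 (adjusted p = 0.0817). It was -0.16 without family 2 of stage 11 (adjusted p = 0.882), the library with the high value, and -2.89 without family 1 of stage 11 (adjusted p = 0.0102). When features of low counts were kept it passed the threshold (adjusted p = 3.00e-11, edgeR). Adjusted p of other named features fell in that setting too, with log2 nearly unchanged. The pass is thus no sign that the families changed alike.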

How the results depend on the processing

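With family as the replicate block, 1531 features rose and 1069 fell, and without the block 960 and 555. Leaving out 1 library at a time gave 387 to 1165 rising and 200 to 948 falling features. An arm with 1 library left is assumed to vary like the other stages. DESeq2, limma-voom, scaling by DESeq2's size factors, keeping low counts, thinning, and leaving out features that overlap the other strand kept both counts within 1.5 times, as did leaving out the 10 most abundant features, which was chosen after seeing the data (1554 and 1032). With no filter, the difference between families had 24 higher and 9 lower calls, and with DESeq2 1 higher. With a change of at least 4 times, 20.2% of features lower in family 1 were also lower in family 2, against 1.90% of all. With groups of level cut at 4 times, 121 rising features were higher and 102 lower at stage 28 than at 15. Of falling features, 84 were then higher and 76 lower at stages 6 and 8 than at 11, and 79 higher at stage 28 than at 15. Except for these cuts, whose construction asks for a larger change, the cause was not tested. For single named features, 285 values kept direction and call, 14 lost and 3 gained the call, and 0 reversed. Depth limits ratios of features with few counts at stage 11, as for XLOC_026753 (interval from 79.0 to 1129.5).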
